A study of Lens culinaris with 18 samples.

Results

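Lcu.2RBY.6g038550, Lcu.2RBY.6g038570, Lcu.2RBY.6g038590 and Lcu.2RBY.6g038600 are 4 vicilin genes with close identifiers on lentil chromosome 6. They were chosen by identifier from the paper's list of 16 vicilin genes, out of 58243 genes in the deposited count tables, and are written below without the prefix Lcu.2RBY. RNA was sequenced from embryos and from seed coats with the endosperm attached (called seed coat below) of mature green seeds. The lines were M11 (a natural accession with a mutated LcLTP3b, the gene of the allergen Len c3) and the cultivars CDC Redmoon and CDC Gold, all grown under 1 chamber regime. Each line and tissue had 3 libraries, which gives 18 libraries in 6 groups. M11 is a single accession, so effects of its LcLTP3b alleles and of the rest of its genome cannot be told apart, and whether the 3 libraries of each group stem from different plants is not stated.

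Vicilins are 7S globulins, storage proteins that assemble as trimers and fill the protein storage vacuoles of legume cotyledons during seed filling. The seedling breaks them down after germination as a source of nitrogen and carbon. In lentil they are also the source of the allergen Len c1. Separate roles for the 4 genes were not given in the sources used here. Vicilin genes are alike in sequence, and how reads matching more than 1 of them were counted is not given, so the value of a single gene is less certain than a sum over genes. In whole tissue, fewer cells of a type and less RNA per cell cannot be told apart.

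Total counts ranged from 3270275 in Gold embryo replicate 3 to 24309401 in Gold seed coat replicate 3. The line labels of the tissues were compared through genes that were on in 1 line (at least 2 CPM, the gene's counts scaled by the library total, in all 3 libraries) and off in another (at most 0.1 CPM in all 3). Between M11 and Redmoon 93 genes were on or off in both tissues, and all 93 kept their direction. Between M11 and Gold this held for 99 of 99 genes. Between Redmoon and Gold 116 genes qualified in both tissues, and 116 of 116 had opposite directions in embryos and in seed coat. The cultivar labels of 1 tissue therefore go against those of the other, and which tissue is affected was not tested. Cultivar groups are named as labelled, and each result that joins the tissues of a cultivar is also given with the cultivar labels crossed, that is with embryos labelled Redmoon beside seed coats labelled Gold and the reverse.

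The question for the embryo libraries was whether the 4 genes differ between the lines, and whether they do so together. They did not move as a block. In M11, 6g038550, 6g038570 and 6g038590 were lower than in Redmoon and 6g038600 was higher. Against Gold, 6g038570 and 6g038590 were lower in M11 while 6g038550 and 6g038600 were higher. Levels are CPM with library sizes scaled by edgeR's TMM method within the tissue. Levels of different genes are not compared, because gene lengths were not used.

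The level of 6g038550 was 10938, 10651 and 10549 TMM-scaled CPM in M11 embryos, against 69288, 70635 and 73108 in Redmoon embryos and 3616, 2906 and 1976 in Gold embryos. The order was Redmoon, M11, Gold, with no overlap between the lines. The log2 fold change of M11 over Redmoon was -2.73 (SE 0.12, edgeR adjusted p = 6.39e-16), and that of M11 over Gold was 1.91 (SE 0.12, edgeR adjusted p = 1.99e-13). Redmoon over Gold was the largest difference of the 4 genes in embryos, with a log2 fold change of 4.64 (SE 0.13, edgeR adjusted p = 7.35e-20), a level 25.0 times as high. Relative to the mean, the Gold libraries were the most spread for this gene, at 2833 ± 822 (SD, n = 3, a coefficient of variation of 29.0%), and the lowest value came from the shallowest library, Gold replicate 3.

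The order of the lines was different for 6g038570. Its level was 7266, 7118 and 6514 TMM-scaled CPM in M11 embryos, against 15691, 15886 and 17018 in Redmoon embryos and 36995, 35569 and 43792 in Gold embryos. All M11 libraries lay below all Redmoon libraries, and these lay below all Gold libraries. M11 fell by 1.22 on the log2 scale relative to Redmoon (SE 0.07, edgeR adjusted p = 1.51e-13) and by 2.48 relative to Gold (SE 0.07, edgeR adjusted p = 7.21e-20). Redmoon was lower than Gold, with a log2 fold change of -1.26 (SE 0.07, edgeR adjusted p = 1.02e-13).

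For 6g038590 the level was 4103, 4024 and 4072 TMM-scaled CPM in M11 embryos, against 19105, 19163 and 19361 in Redmoon embryos and 10058, 9193 and 10940 in Gold embryos. M11 was again lowest without overlap, but here Redmoon was above Gold. The log2 fold change was -2.24 for M11 over Redmoon (SE 0.07, edgeR adjusted p = 1.15e-19), -1.31 for M11 over Gold (SE 0.06, edgeR adjusted p = 1.30e-15) and 0.93 for Redmoon over Gold (SE 0.06, edgeR adjusted p = 2.81e-12). The difference from Gold depended on the scaling. With library totals alone it was -0.05 (edgeR adjusted p = 0.469), beside a median of 1.26 over all genes under that scaling, and -1.31 relative to that median.

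The last gene, 6g038600, had few counts in all embryo groups and was near the limit of detection in Gold embryos. It had 107, 85 and 75 counts in M11 embryos, against 34, 31 and 25 in Redmoon embryos and 9, 7 and 1 in Gold embryos. These were 2.91 ± 0.49 TMM-scaled CPM in M11, 1.64 ± 0.08 in Redmoon and 0.54 ± 0.13 in Gold (SD, n = 3 each). M11 was thus highest, which was not the case for any of the other 3 genes. The log2 fold change was 0.82 over Redmoon (SE 0.19, edgeR adjusted p = 0.000728) and 2.37 over Gold (SE 0.30, edgeR adjusted p = 1.52e-07), and Redmoon was above Gold by 1.55 (SE 0.35, edgeR adjusted p = 0.000577). It took 0.0133% of the counts on the 4 genes in M11 embryos, so reads shared with its neighbours could weigh on its value, which was not tested.

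Over the group, 4 of 4 genes were called in embryos between M11 and Redmoon, 4 of 4 between M11 and Gold and 4 of 4 between Redmoon and Gold. In these comparisons 63.6%, 74.0% and 55.2% of all 18623 genes tested were called, so being called is not particular to the group. The libraries of the 2 lines did not overlap for any of the 4 genes in any of the 3 comparisons, which held for 68.8% of all genes between M11 and Redmoon, 72.7% between M11 and Gold and 54.9% between Redmoon and Gold. By direction, M11 had 1 higher and 3 lower genes against Redmoon, where 31.5% of all genes were higher and 32.1% lower. Against Gold it had 2 higher and 2 lower genes, where 36.9% of all genes were higher and 37.1% lower. Redmoon had 3 higher genes and 1 lower gene against Gold, where 27.7% were higher and 27.4% lower. The comparisons with Redmoon and with Gold share the M11 libraries. Over the 4 genes the median log2 fold change was -1.73 against Redmoon and 0.30 against Gold, beside medians of all genes within 0.01 of 0.

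**Figure D1:**
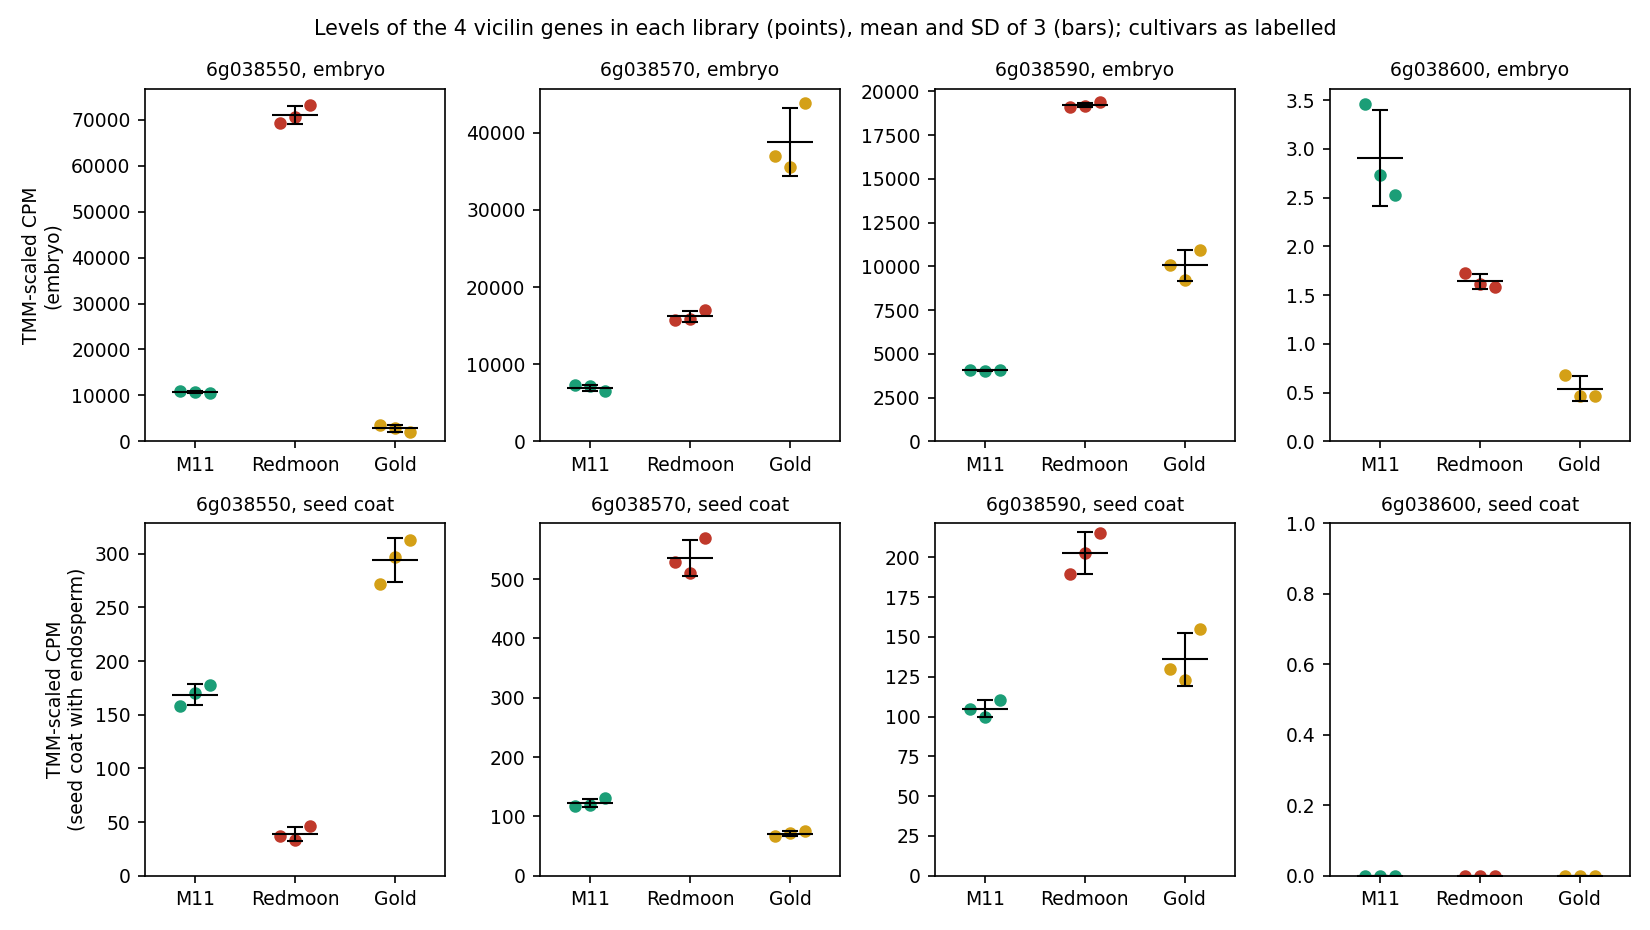
Level of each of the 4 vicilin genes in TMM-scaled CPM (y axis, linear from 0, 1 scale per panel) in M11, Redmoon and Gold (x axis), for embryos in the upper row and seed coat with endosperm in the lower row, with 1 point per library, a long bar at the mean and capped bars for the SD of 3 libraries. The M11 embryos lie below both cultivars for 6g038570 and 6g038590, between them for 6g038550 and above them for 6g038600, which had 0 counts in all seed coat libraries.

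In seed coat the 3 abundant genes were again called between all pairs of lines, with directions that differed from those in embryos for some genes and pairs. As labelled, 6g038550 had the opposite direction to that in embryos in all 3 pairs of lines, and 6g038570 in M11 over Gold and Redmoon over Gold but not in M11 over Redmoon. With the cultivar labels crossed, 6g038550 kept its direction (log2 fold changes of M11). It had -2.73 in embryos over Redmoon beside -0.80 in seed coats over Gold, and 1.91 in embryos over Gold beside 2.10 in seed coats over Redmoon. For 6g038570 crossed, -1.22 in embryos over Redmoon stood beside 0.79 in seed coats over Gold, of the opposite sign. Its -2.48 in embryos over Gold stood beside -2.13 in seed coats over Redmoon, of the same sign. The level of 6g038550 was 158, 170 and 178 TMM-scaled CPM in M11 seed coat, against 36.9, 33.7 and 46.1 in Redmoon seed coat and 272, 297 and 313 in Gold seed coat. M11 was thus above Redmoon (log2 fold change 2.10, SE 0.07, edgeR adjusted p = 5.79e-36) and below Gold (log2 fold change -0.80, SE 0.05, edgeR adjusted p = 2.15e-21), and the 3 lines did not overlap.

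The level of 6g038570 was 118, 119 and 131 TMM-scaled CPM in M11 seed coat, against 529, 510 and 569 in Redmoon seed coat and 66.1, 71.3 and 74.7 in Gold seed coat. M11 was below Redmoon by a log2 fold change of -2.13 (SE 0.05, edgeR adjusted p = 8.49e-44) and above Gold by 0.79 (SE 0.05, edgeR adjusted p = 1.44e-20). This order, Redmoon, M11, Gold, is the reverse of that of 6g038550 in the same libraries. Redmoon over Gold had a log2 fold change of -2.90 for 6g038550 (SE 0.06, edgeR adjusted p = 7.77e-46) and 2.92 for 6g038570 (SE 0.05, edgeR adjusted p = 1.46e-52).

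For 6g038590 the differences were smaller. Its level was 105, 99.5 and 111 TMM-scaled CPM in M11 seed coat, against 190, 203 and 216 in Redmoon seed coat and 130, 123 and 155 in Gold seed coat. M11 was lowest without overlap, as in embryos, with a log2 fold change of -0.95 over Redmoon (SE 0.06, edgeR adjusted p = 1.56e-21) and -0.37 over Gold (SE 0.06, edgeR adjusted p = 1.04e-07). Redmoon was above Gold by 0.58 (SE 0.05, edgeR adjusted p = 3.50e-15). As labelled, 6g038590 was the 1 gene of the 3 with the same order of lines in both tissues, and with the cultivar labels crossed its order differs between the tissues.

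No seed coat library had a count on 6g038600. A count of 0 leaves room for 0.158 CPM in M11, 0.0999 CPM in Redmoon and 0.0436 CPM in Gold (3 counts over the group, counting error only), and the gene was not tested between lines there. All 3 tested genes were called in each of the 3 seed coat comparisons, where 71.5% (M11 against Redmoon), 72.8% (M11 against Gold) and 66.4% (Redmoon against Gold) of 19386 genes were called. Against Redmoon, 1 gene was higher and 2 were lower in M11, with 37.2% of all genes higher and 34.2% lower. Against Gold the same counts stood beside 35.9% and 36.9%. Redmoon had 2 higher genes and 1 lower gene against Gold, beside 32.6% and 33.8%. None of the 3 genes overlapped between lines, as was so for 72.3% of all genes between M11 and Redmoon, 74.4% between M11 and Gold and 69.9% between Redmoon and Gold.

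**Figure D2:**
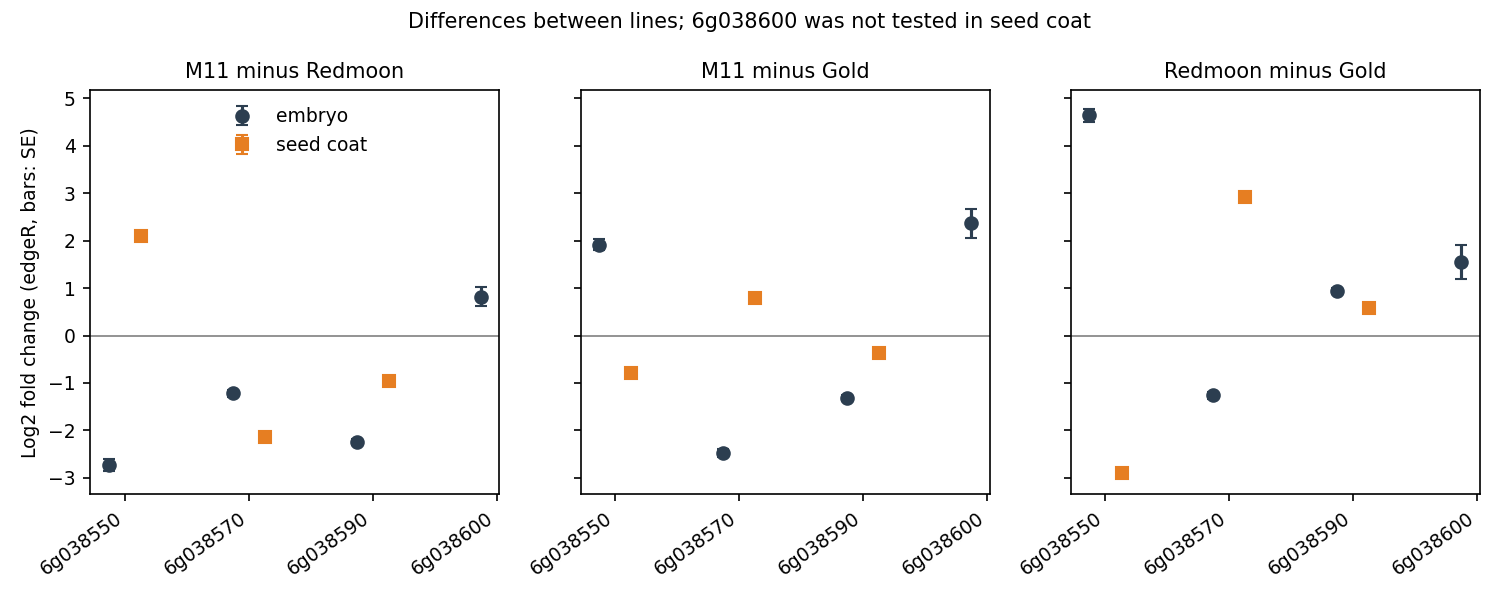
Log2 fold change of each gene (y axis, edgeR, bars are standard errors and are often smaller than the symbol) for M11 minus Redmoon, M11 minus Gold and Redmoon minus Gold, with circles for embryos and squares for seed coat. As labelled, 6g038550 has opposite signs in the tissues in all 3 panels, for example -2.73 in embryos and 2.10 in seed coats for M11 minus Redmoon (crossed with M11 minus Gold the seed coat value is -0.80, of the same sign), while 6g038590 keeps its sign.

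Since reads may be split between alike genes, the 4 genes were also summed. The sum was 22310, 21796 and 21137 TMM-scaled CPM in M11 embryos, against 104086, 105686 and 109489 in Redmoon embryos and 50670, 47669 and 56710 in Gold embryos. M11 was lowest in all libraries, at 0.204 times the level of Redmoon and 0.422 times that of Gold (two-sided exact permutation test on log2 values, p = 0.1 for both, which no design of 3 against 3 libraries can go below). Both values depended on the scaling. With library totals alone M11 was at 0.319 times Redmoon and 1.01 times Gold, where the M11 and Gold libraries overlapped (two-sided exact permutation test, p = 1). With library totals without the vicilin genes it was at 0.244 times Redmoon and 0.757 times Gold, with no overlap. Relative to the median of all genes the log2 difference of M11 over Gold was -1.25 with TMM, -1.25 with library totals and -1.26 without the vicilin genes, and that of M11 over Redmoon was -2.29, -2.28 and -2.29. In seed coat the sum was 381, 389 and 419 in M11, against 755, 747 and 831 in Redmoon and 468, 491 and 542 in Gold. M11 was again lowest, at 0.510 times Redmoon and 0.792 times Gold (two-sided exact permutation test, p = 0.1 for both).

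The share of the vicilin counts that fell on the 4 genes does not depend on the scaling of libraries. It was 24.2%, 24.5% and 23.7% in M11 embryos, against 30.5%, 31.7% and 30.6% in Redmoon embryos and 8.89%, 9.20% and 10.3% in Gold embryos. The group thus held a smaller part of vicilin in M11 than in Redmoon and a larger part than in Gold. Relative to the counts on the other 12 listed vicilin genes, the sum of the 4 genes changed by -0.50 on the log2 scale for M11 over Redmoon and by 1.60 for M11 over Gold (two-sided exact permutation test, p = 0.1 for both). In seed coat the share was 19.7%, 20.5% and 19.7% in M11, against 9.96%, 9.42% and 10.1% in Redmoon and 27.6%, 27.4% and 28.1% in Gold. There the log2 difference was 1.20 for M11 over Redmoon and -0.62 for M11 over Gold (two-sided exact permutation test, p = 0.1 for both).

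The nearest other listed vicilin genes by identifier, 6g038150 and 6g038160, were set beside the group. In M11 embryos they were lower than in Redmoon, with log2 fold changes of -2.42 and -2.66 (edgeR adjusted p = 7.22e-21 and 2.04e-21), and lower than in Gold, with -3.47 and -3.39 (edgeR adjusted p = 2.51e-24 and 5.91e-24). The ratio of the 4-gene sum to the sum of this pair was 4.56 times as high in M11 as in Gold embryos and 1.19 times as high in M11 as in Redmoon embryos, without overlap between the lines (two-sided exact permutation test, p = 0.1 for both). In seed coat this ratio was 4.46 times as high in M11 as in Redmoon and 1.59 times as high as in Gold (two-sided exact permutation test, p = 0.1 for both).

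A ratio of 2 genes within a library also does not depend on scaling, and shows whether their counts move together. It does depend on how reads matching both genes were counted, which is not given, and the effect of this was not tested. Embryos of M11 had 1.51, 1.50 and 1.62 counts on 6g038550 for each count on 6g038570, against 4.42, 4.45 and 4.30 in Redmoon embryos and 0.0977, 0.0817 and 0.0451 in Gold embryos. This ratio was therefore 0.351 times as high in M11 as in Redmoon and 21.6 times as high as in Gold, and 61.6 times as high in Redmoon as in Gold. In seed coat it was 1.34, 1.43 and 1.36 in M11, against 0.0699, 0.0661 and 0.0810 in Redmoon and 4.12, 4.16 and 4.18 in Gold.

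The 3 lines did not overlap in either tissue for this ratio, nor for 6g038570 to 6g038590 or 6g038550 to 6g038590. How often ratios of other gene pairs separate the lines was not counted. Levels of single genes did so for 54.9% to 74.4% of all genes tested. The separation of the ratios is therefore not taken as particular to the group. All 18 tests of the 3 ratios between pairs of lines within a tissue gave p = 0.1 (two-sided exact permutation tests, Benjamini-Hochberg adjusted p = 0.1 over the 18), which is the smallest p possible. For 6g038570 to 6g038590 the ratio was 2.03 times as high in M11 as in Redmoon embryos and 0.445 times as high as in Gold embryos. For 6g038550 to 6g038590 it was 0.713 and 9.62 times as high.

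The share of the 4-gene counts taken by each gene shows where the ratios came from. In embryos 6g038550 took 49.3% ± 0.56 in M11, 66.7% ± 0.14 in Redmoon and 5.57% ± 1.88 in Gold (SD, n = 3 each). For 6g038570 the shares were 32.0% ± 1.04 in M11, 15.2% ± 0.28 in Redmoon and 74.9% ± 2.13 in Gold. In contrast, 6g038590 took 18.7% ± 0.48 in M11, 18.1% ± 0.34 in Redmoon and 19.5% ± 0.32 in Gold embryos.

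The seed coat libraries showed the same kind of split, but as labelled the cultivars were in the opposite order for 6g038550 and 6g038570. There 6g038550 took 42.6% ± 1.13 in M11, 4.98% ± 0.52 in Redmoon and 58.8% ± 1.49 in Gold (SD, n = 3 each). The shares of 6g038570 were 30.9% ± 0.30 in M11, 69.0% ± 0.92 in Redmoon and 14.1% ± 0.37 in Gold. Those of 6g038590 were 26.5% ± 0.97 in M11, 26.1% ± 1.03 in Redmoon and 27.1% ± 1.85 in Gold. Crossed, 6g038550 took 66.7% in Redmoon embryos beside 58.8% in Gold seed coats. It took 5.57% in Gold embryos beside 4.98% in Redmoon seed coats. For 6g038570 the same pairs were 15.2% beside 14.1%, and 74.9% beside 69.0%.

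**Figure D3:**
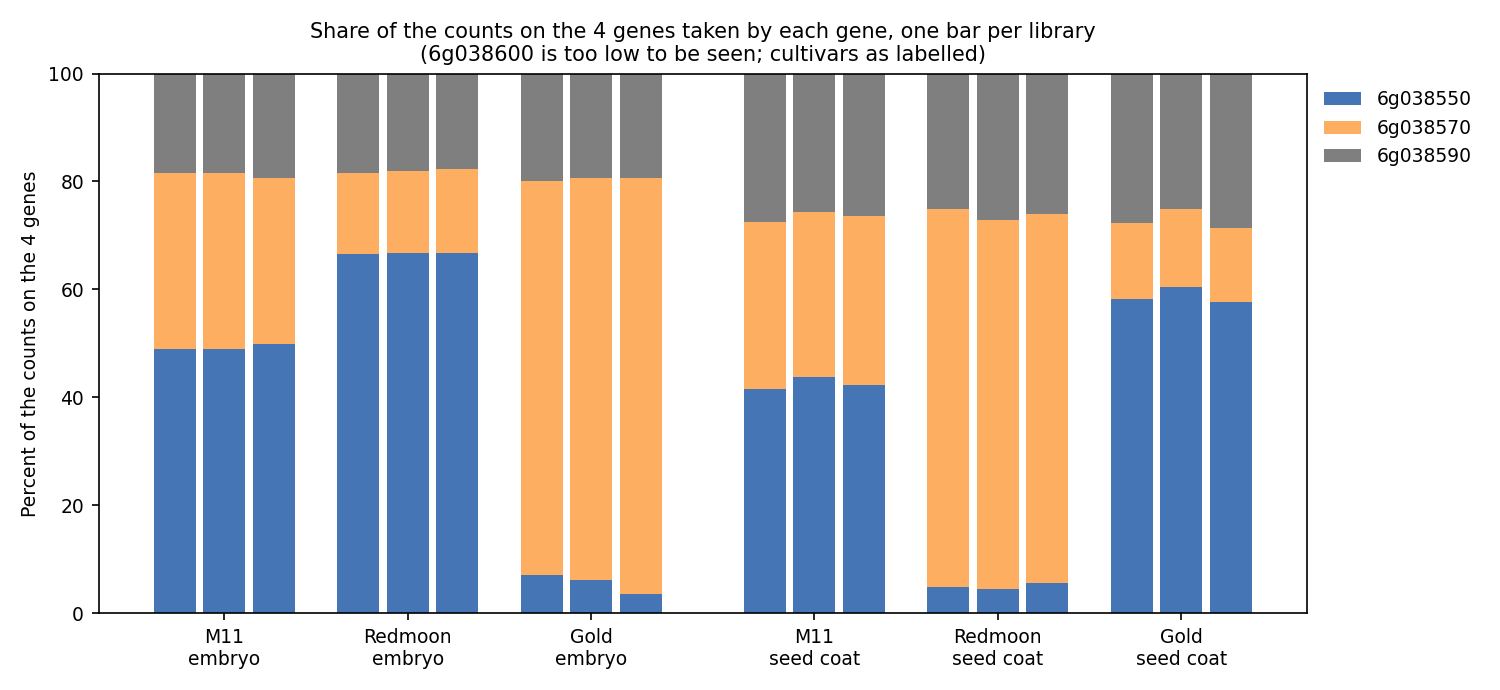
Percent of the counts on the 4 genes (y axis) taken by 6g038550 (bottom), 6g038570 (middle) and 6g038590 (top) in each of the 18 libraries, in groups of 3 replicates by line and tissue. The boundary between 6g038550 and 6g038570 lies on average at 49.3% in M11 embryos, 66.7% in Redmoon embryos and 5.57% in Gold embryos, while 6g038590 takes 18.1% to 19.5% on average in all embryo groups and 26.1% to 27.1% in all seed coat groups.

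Because of these shares, which were seen first, the counts on 6g038550 and 6g038570 together were set against those on 6g038590. The ratio was 0.958 times as high in M11 as in Redmoon embryos and 1.05 times as high as in Gold embryos, and 1.10 times as high in Redmoon as in Gold embryos. This ratio restates the share of 6g038590, and its differences were small beside the spread. The lines did not overlap (p = 0.1 for each in two-sided exact permutation tests), but the nearest libraries were at 4.44 in M11 and 4.45 in Redmoon. With each library left out in turn, p of this test ranged from 0.1 to 0.4 for M11 against Redmoon. It ranged from 0.1 to 0.2 for M11 against Gold and stayed at 0.1 for Redmoon against Gold. In seed coat the ratio was 0.977 times as high in M11 as in Redmoon and 1.03 times as high as in Gold, and the groups overlapped (two-sided exact permutation test, p = 0.6 and p = 0.7). The sum of 6g038550 and 6g038570 thus stayed within 10% of the same proportion to 6g038590 between lines of a tissue, while the ratio of 6g038550 to 6g038570 differed by up to 61.6 times.

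**Figure D4:**
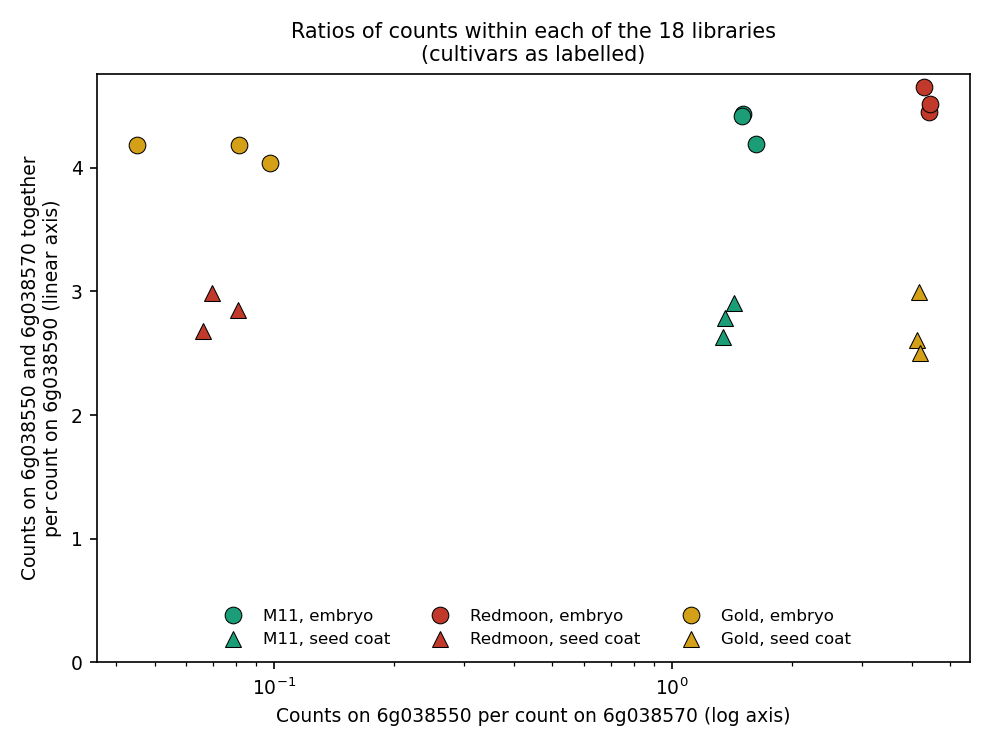
Counts on 6g038550 per count on 6g038570 (x axis, log scale) and counts on both genes together per count on 6g038590 (y axis, linear from 0), with 1 symbol per library, circles for embryos, triangles for seed coat and colours for the lines as labelled. The tissues separate along the y axis and the lines along the x axis, where the Redmoon embryos stand above the Gold seed coats and the Gold embryos above the Redmoon seed coats.

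All 4 genes were higher in embryo than in seed coat in each line. In M11, whose labels go together in both tissues, the log2 fold change of embryo over seed coat was 6.96 for 6g038550 (SE 0.13, edgeR adjusted p = 1.39e-48), 6.80 for 6g038570 (SE 0.09, edgeR adjusted p = 5.33e-56) and 6.24 for 6g038590 (SE 0.09, edgeR adjusted p = 7.27e-55), in 1 fit of all 18 libraries. In M11, 39.9% of 22081 genes were called higher in embryo. The level of 6g038600 was at least 28.5-fold higher in M11 embryo than in M11 seed coat, from 267 counts against the limit of 3 counts over the seed coat libraries (library totals). All 4 genes were called in M11, where 79.4% of genes were called, 39.6% were lower in embryo, and the tissues did not overlap for 80.3%.

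In the cultivars the tissue difference depended on the labels. As labelled, embryo over seed coat in Redmoon was 11.78 for 6g038550, 5.88 for 6g038570 and 7.53 for 6g038590 on the log2 scale, and in Gold 4.16, 9.98 and 7.09 (edgeR adjusted p at most 2.64e-40). With the cultivar labels crossed, Redmoon embryos over Gold seed coats gave 8.83, 8.76 and 8.06, and Gold embryos over Redmoon seed coats gave 7.11, 7.10 and 6.56. All 4 genes were called higher in embryo in both cultivars, as labelled and crossed. Of all genes 83.9% were called in Redmoon (43.0% higher and 40.9% lower in embryo as labelled) and 80.2% in Gold (39.6% higher and 40.6% lower). Crossed, 81.8% were called for Redmoon embryos over Gold seed coats (39.7% higher in embryo) and 78.2% for Gold embryos over Redmoon seed coats (41.6% higher). The tissues as labelled did not overlap for 84.0% of genes in Redmoon and 77.5% in Gold.

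The ratio of 6g038550 to 6g038570 gave the same picture. In M11 embryos it was 1.12 times that in M11 seed coats (two-sided exact permutation test, p = 0.1). As labelled it was 60.8 times as high in embryo in Redmoon and 0.0171 times as high in Gold. Crossed, it was 1.06 times as high in Redmoon embryos as in Gold seed coats (two-sided exact permutation test, p = 0.1) and 0.987 times as high in Gold embryos as in Redmoon seed coats (two-sided exact permutation test, p = 1).

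Seed coat libraries also hold the other vicilin genes, which were read beside the 4 genes. The other 12 listed genes took 10.5% to 10.8% of all counts in M11 embryos and 0.160% to 0.181% in M11 seed coat. In seed coat they took 0.644% to 0.704% in Redmoon and 0.123% to 0.139% in Gold, so the Redmoon seed coats were highest, as they were for the 4-gene sum. In M11 the seed coat level was 1.07% of the embryo level for 6g038550, 1.20% for 6g038570, 1.76% for 6g038590 and 1.59% for the other 12 genes together (CPM by library totals). The part of embryo RNA in the seed coat values was not tested. The proportion of 6g038550 and 6g038570 to 6g038590 was 1.57 times as high in M11 embryos as in M11 seed coats (two-sided exact permutation test, p = 0.1).

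An interaction term asked whether the lines differed by other amounts in the tissues, as the log2 difference in embryo minus that in seed coat. For M11 minus Redmoon it was -4.83 for 6g038550 (SE 0.16, edgeR adjusted p = 9.71e-34), 0.91 for 6g038570 (SE 0.10, edgeR adjusted p = 1.86e-11) and -1.29 for 6g038590 (SE 0.10, edgeR adjusted p = 1.55e-16). For M11 minus Gold it was 2.80, -3.18 and -0.84 (SE 0.14, 0.10 and 0.10, edgeR adjusted p = 7.33e-25, 3.85e-34 and 1.60e-10). All 3 genes were called in both. With library totals alone the last value, of 6g038590, was 0.24 (edgeR adjusted p = 0.0292), beside a median of 1.12 over all genes under that scaling and -0.88 relative to that median. For M11 minus Redmoon 47.2% of 22081 genes were called, with 20.5% higher and 26.7% lower, and for M11 minus Gold 55.3%, with 28.1% higher and 27.2% lower. For Redmoon minus Gold all 3 genes were also called, with 2 higher and 1 lower, beside 55.6% of all genes, of which 30.9% were higher and 24.7% lower.

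These interactions change with the cultivar labels. Crossed, M11 minus Redmoon in embryo less M11 minus Gold in seed coat was -1.88, -1.96 and -1.81 for 6g038550, 6g038570 and 6g038590 (edgeR adjusted p at most 3.28e-17). M11 minus Gold in embryo less M11 minus Redmoon in seed coat was -0.15 for 6g038550, which was not called (edgeR adjusted p = 0.473), -0.31 for 6g038570 (edgeR adjusted p = 0.00971) and -0.32 for 6g038590 (edgeR adjusted p = 0.00785). All 3 genes were called in the first of these, beside 46.9% of all genes, and 2 of 3 in the second, beside 46.8%. Over the 3 genes the values thus lay between -1.96 and -1.81 and between -0.32 and -0.15 crossed, while as labelled they lay between -4.83 and 0.91 and between -3.18 and 2.80.

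Likeness between genes was described by Pearson's r of log2(TMM-scaled CPM + 1), centred within each tissue, over the 18 libraries. These fall into 6 groups of 3, so r mainly reflects the group means, and it does not use the line labels. It was -0.64 between 6g038550 and 6g038570, 0.24 between 6g038550 and 6g038590 and 0.56 between 6g038570 and 6g038590. With library totals alone the pairs with 6g038590 had r = 0.45 (6g038550) and 0.29 (6g038570). Without centring it was 0.81 for 6g038550 and 6g038570, 0.92 for 6g038550 and 6g038590 and 0.97 for 6g038570 and 6g038590, where all 3 genes were far higher in embryo. Among the 9 embryo libraries 6g038600, with few counts, had r = 0.52 with 6g038550, -0.97 with 6g038570 and -0.45 with 6g038590.

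The gene most like 6g038570 among 22080 others was 3g014450, a listed vicilin gene of chromosome 3, with r = 0.99. Its levels were 5401 ± 147 TMM-scaled CPM in M11 embryos, 17605 ± 974 in Redmoon embryos and 54997 ± 2257 in Gold embryos (SD, n = 3 each). Next came 3g072880 and 7g051400, both with r = 0.99, which are not in the vicilin list. Their likeness held within tissues only, since without centring their r was -0.68 and -0.34, while that of 3g014450 was 0.997. The vicilin genes 1g038070, 3g008770, 3g014420, 3g014440 and 4g077560 had r between 0.94 and 0.98 with 6g038570.

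The pattern of 6g038550 was unlike that of most listed vicilin genes. Of the other 12, r was positive for 1, 6g035140 at 0.66, and it was lowest for 7g031050 at -0.95. The 3 most alike genes were 7g046950, 4g028360 and 1g003320 (r = 0.99, 0.99 and 0.98), none of them a listed vicilin gene. The level of 7g046950 was 1.51 ± 0.06 TMM-scaled CPM in M11 embryos and 8.85 ± 0.71 in Redmoon embryos (SD, n = 3 each), with 0 counts in Gold embryos, and 2.97 ± 0.75 in M11 seed coat, 5.76 ± 0.68 in Gold seed coat and 0 counts in Redmoon seed coat. For 6g038590 the 3 most alike genes were 3g075480, 7g063180 and 4g055790 (r = 0.97, 0.97 and 0.96, and 0.65, -0.58 and 0.85 without centring). Among the vicilin genes 7g031150 came first with 0.88.

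**Figure D5:**
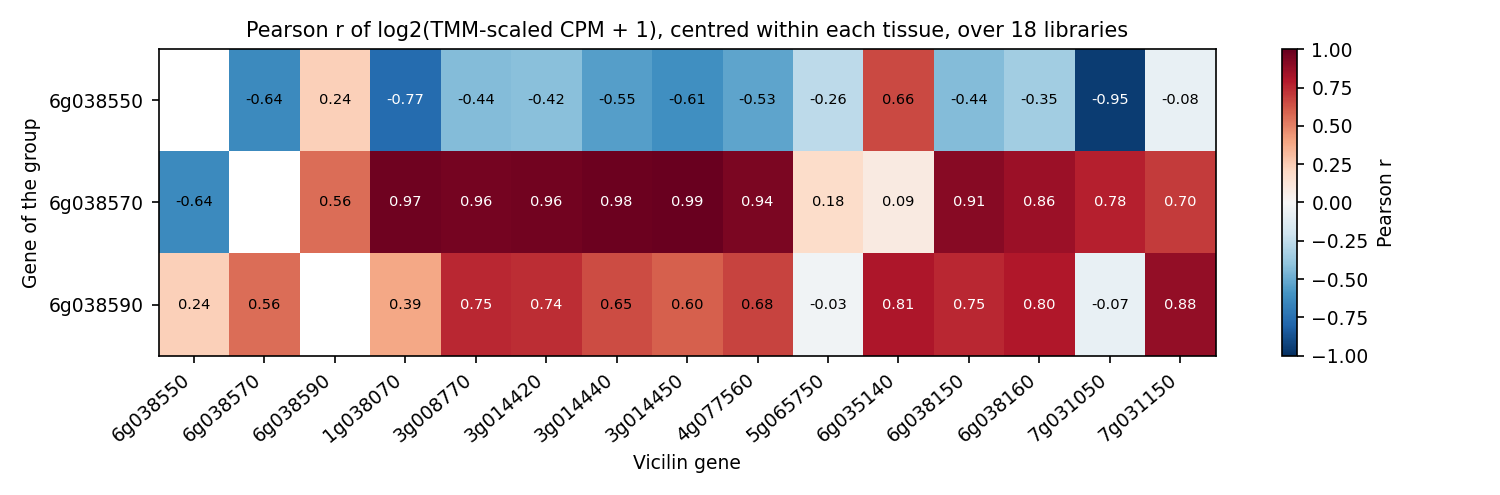
Pearson's r (colour and printed value) between 6g038550, 6g038570 and 6g038590 (rows) and the listed vicilin genes (columns), from log2(TMM-scaled CPM + 1) centred within each tissue over 18 libraries. For the 12 genes outside the group the row of 6g038570 lies between 0.70 and 0.99, except 0.09 for 6g035140 and 0.18 for 5g065750, while the row of 6g038550 is negative except for 6g038590 and 6g035140.

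The other 12 listed vicilin genes give the setting in which the group stood. The list is the paper's, reported there for these samples, and how its genes were picked is not stated, so its direction is not taken as independent evidence. In embryos 10 of the 12 were lower and 2 were higher in M11 than in Redmoon (median log2 fold change -1.70), and 10 were lower, 1 was higher and 1 was not called against Gold (median -2.84). In seed coat 12 of 12 were lower in M11 than in Redmoon (median -2.22), and against Gold 6 were higher, 5 were lower and 1 was not called (median 0.02). Medians of all genes lay between -0.01 and 0.04 in these comparisons. Thus 6g038570 and 6g038590 had the direction of most listed genes in embryos, and 6g038550 had it against Redmoon but not against Gold. The fourth gene, 6g038600, with few counts, had the opposite direction against Redmoon (0.82) and against Gold (2.37).

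Neighbours by identifier, from 6g038500 to 6g038650, were 12 genes besides the group, of which 4 passed the filter on low counts in each tissue. The genes between the members, 6g038560 and 6g038580, had 0 and 1 counts over all 18 libraries. Of the 4 tested in embryos, 3 were lower in M11 than in Redmoon and 1 was not called. Against Gold 2 were lower, 1 was higher and 1 was not called. One neighbour, 6g038530, was singled out after its values were seen. It had 0 counts in all M11 libraries of both tissues, 179, 175 and 132 counts in Redmoon embryos, 0 in Gold embryos and Redmoon seed coats, and 350, 352 and 344 in Gold seed coats. Its pattern over the cultivar labels is that of the on and off genes above, and within each tissue 6g038550 was highest in the same group of libraries as 6g038530.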

How the data were processed

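The authors deposited unnormalised counts of reads on 58243 genes, in 1 table per line and tissue with 1 column per library. The submitters' processing notes name STAR 2.7.10. The counting tool, genome build and treatment of reads matching several genes were not given in the sources used here, and genes are named by identifier.

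Counts were fitted with edgeR 4.0.16 in R 4.3.3 (glmQLFit, glmQLFTest, TMM, filterByExpr), with 9 libraries of a tissue in 1 fit, or all 18 for comparisons of tissues and interactions. Calls were made at an adjusted p under 0.05 (Benjamini-Hochberg, over all genes tested). Log2 fold changes are the first group minus the second. P-values measure the spread between libraries, which may be technical. Ratios of genes used counts with 0.5 added. The chi-square per degree of freedom between replicates was at least 1.55, so none was counted as a repeat of another.

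The genes and lists were chosen with earlier results of these data known. The named genes are the 4 members, the pair 6g038150 and 6g038160, tested genes between the members, and the 3 genes most like each member with counts in both tissues. Other vicilin genes and 6g038530 were named after their values were seen. No reference sequence was used. The fits were tested on simulated data. Alternatives were other scalings, DESeq2 1.42.0, other filters on low counts, other sets of libraries in the fit, the replicate number as a block, crossed cultivar labels, other pseudocounts and each replicate left out. Comparisons of 6g038550 and 6g038570 with 6g038590, and of the group with other vicilin genes, were added after the data were seen. The authors' fold changes in the paper's supplement were not used.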

Additional observations from a re-analysis of the deposited data

Results flagged for a closer look

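As labelled, the difference between lines differed between the tissues for 6g038550, 6g038570 and 6g038590 in all 3 pairs of lines. This was by the interaction test (log2 difference in embryo minus that in seed coat, edgeR with Benjamini-Hochberg adjustment). For M11 minus Redmoon the values were -4.83, 0.91 and -1.29, and for M11 minus Gold 2.80, -3.18 and -0.84. For Redmoon minus Gold they were 7.63 for 6g038550 (edgeR adjusted p = 3.93e-44), -4.09 for 6g038570 (edgeR adjusted p = 1.61e-40) and 0.45 for 6g038590 (edgeR adjusted p = 7.45e-05), where 55.6% of 22081 genes were called. With the cultivar labels crossed the last 3 values were 1.73, 1.65 and 1.50, and all 3 genes were called, beside 41.5% of all genes. Crossed, M11 minus Redmoon in embryo gave -1.88, -1.96 and -1.81, all called, beside 46.9% of all genes. M11 minus Gold in embryo gave -0.15, -0.31 and -0.32, beside 46.8%. There 6g038550 was not called (edgeR adjusted p = 0.473). Groups of 3 libraries are too small for a check of single libraries far from the rest.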

How the results depend on the processing

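No count of members called moved by over 1.5 times under any alternative run, and with each replicate left out the counts ranged from 4 to 4 between lines in embryos and between tissues, and from 3 to 3 in seed coat and in the interactions. With library totals alone, the 4-gene sum for M11 over Gold in embryos changed sign to a log2 ratio of 0.0108, 6g038590 was no longer called there, and its interaction for M11 minus Gold changed sign to 0.24 (edgeR adjusted p = 0.0292), which is -0.88 relative to the median of all genes. That scaling moved the median of all embryo genes to 0.64 for M11 over Redmoon, 1.26 for M11 over Gold and 0.62 for Redmoon over Gold, and the share of calls that were higher to 85.8%, 87.8% and 86.9%, from 49.6%, 49.8% and 50.2%. With library totals without the vicilin genes the same interaction was -0.17 and not called (edgeR adjusted p = 0.136). With the cultivar labels crossed, 3 interactions changed sign, to -1.96 (6g038570, M11 minus Redmoon), -0.15 (6g038550, M11 minus Gold, not called, which left 2 of 3 called there) and 1.65 (6g038570, Redmoon minus Gold). The cause of these changes was not tested.

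Likeness without centring changed sign to 0.81 for 6g038550 and 6g038570, and was 0.97 for 6g038570 and 6g038590 and 0.92 for 6g038550 and 6g038590. With library totals alone the last 2 pairs had 0.29 and 0.45. The ratio of 6g038550 to 6g038570 in Gold embryos over Redmoon seed coats ranged from -0.25 to 0.31 (log2) with each replicate left out, and changed sign to 0.31 without Gold embryo replicate 3 and to 0.07 without Redmoon seed coat replicate 3. The ratio of both genes to 6g038590 ranged in seed coat from -0.0736 to 0.0042 for M11 over Redmoon, with a change of sign without M11 replicate 1 (0.0042) or Redmoon replicate 1 (0.0030), and from -0.0114 to 0.119 for M11 over Gold, with a change of sign without Gold replicate 3. With each replicate left out, the 4-gene sum for M11 over Redmoon ranged from -2.31 to -2.27 in embryos and from -1.01 to -0.92 in seed coat. Under the alternatives run, all other values of single genes that could be tested kept their direction and their call. With at least 10 counts required in every library, 6g038600 could not be tested.

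The labels do not say that a replicate number marks a shared plant or day, and deviations of same-numbered libraries correlated between -0.04 and 0.09 over genes. With the replicate number as a block, the members called were 4 in each embryo comparison and 3 in each seed coat comparison, and the calls over all genes were between 98.2% and 99.7% of those without it. Depth limited 6g038600, with 1 count in the shallowest library.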
